A study of Capra hircus with 3 samples.

Results

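Cytochrome P450 enzymes and the dehydrogenases and carrier that work with them in steroid synthesis were examined in the skin of Arbas Cashmere goats. Members were the probes of the array whose gene name starts with CYP, or whose description names cytochrome P450, the steroidogenic acute regulatory protein, a hydroxysteroid enzyme or steroid 5-alpha-reductase, without cytochrome P450 reductase. This gave 20 of the 14314 gene or record names of the sheep array, with 28 of 15008 probes. CYP1A1 (1 probe) and CYP17A1 (2 probes) were selected on their mean log2 ratio on these same arrays, which was past a 2-fold change at 1 probe of each. Their ratios are therefore given as a description without a test, beside the other 25 probes.

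Skin was taken in July from 6 female goats, 2 years old, of which 3 lived under a short photoperiod and 3 under natural conditions. The short photoperiod goats were outdoors from 9:30 to 16:30 and otherwise in a dark shed at about 0.1 lux, 1 °C cooler than outside. All goats were otherwise kept alike, and the titles of the arrays call the natural condition a long photoperiod. Each of 3 Agilent sheep arrays compared 1 short photoperiod goat (Cy5) with 1 natural photoperiod goat (Cy3) of the same parent. Log2 ratios (Cy5 over Cy3) were loess-normalized array by array, so a value above 0 means a higher signal under the short photoperiod. Since the dyes were swapped on 0 arrays, a dye bias of a probe and a difference between the photoperiods cannot be told apart. The samples hold whole skin, so fewer cells of a type and less RNA per cell cannot be told apart either. The probes were designed on sheep sequences, and mismatches with the goat transcripts are not known here.

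Cytochrome P450 enzymes are haem proteins that insert oxygen into steroids, fatty acids, vitamins, drugs and pollutants. CYP1A1 oxidizes aromatic hydrocarbons and is the classical target of the aryl hydrocarbon receptor (AHR), a ligand-activated transcription factor that is also active in skin. In steroid synthesis, STAR brings cholesterol into the mitochondrion and CYP11A1 cuts its side chain. CYP17A1 then hydroxylates and cleaves the steroid on the way to androgens and cortisol, and hydroxysteroid dehydrogenases and aromatase (CYP19) shape the final hormone. Skin is known to make and inactivate steroids locally, mainly in sebaceous glands, hair follicles and keratinocytes.

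The sequences of the probes behind the main contrasts are shown as printed on the array, where every probe has 60 bases. The probes at 1017 in CYP17A1 and at 809 in TC58501 are given whole because another probe of the same record gave a different ratio. For the other probes the last 30 bases are given. The STAR sequences show a pair of probes shifted by 1 base. Capitals mark a match to AATAAA, which 5.63% of all probes hold as printed and 3.70% hold in the reverse complement. The numbers in the names are the start of the probe in its record as the array gives it, and the array gives no genome position for these probes.
CYP1A1 at 2506: atatctatctacctgagctaAATAAAgata
CYP17A1 at 1017: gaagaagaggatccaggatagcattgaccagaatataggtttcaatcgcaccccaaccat
CYP17A1 at 1666: gtgcataaaacagtttctttctccaaaaaa
TC58501 at 809: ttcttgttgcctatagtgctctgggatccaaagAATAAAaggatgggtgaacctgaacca
TC58501 at 1180: attgttaaggtgcttaaatgaagtgtctga
STAR at 1091: aatcggggacaaggctcttcgaacttcact
STAR at 1092: atcggggacaaggctcttcgaacttcactc
HSD11K at 1770: tgacactttttgAATAAAgataaattttta

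CYP1A1 (NM_001129905) was lower under the short photoperiod in every pair of goats. Its log2 ratios were -3.02, -3.39 and -3.19 on replicates 1, 2 and 3. Their mean of -3.20 ± 0.19 (SD, n = 3) is a fold change of 0.109, and the spread between the arrays was small beside the change. In normalized log2 intensity, the level was 10.68, 9.46 and 10.28 in the short photoperiod goats and 13.69, 12.84 and 13.47 in their natural photoperiod partners. The groups were far apart, and the order of the pairs was the same in both, with replicate 2 lowest. The scanner intensities before any normalization already ran this way, with 1673, 983 and 1972 in Cy5 against 8011, 6149 and 9831 in Cy3. On the same arrays the median spot was brighter in Cy5 than in Cy3. A probe is called measured where both of its channels were well above background on all arrays. Of the 13464 measured probes, 1 had a lower mean ratio than CYP1A1, and 5, 3 and 5 had a lower ratio on the respective arrays.

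**Figure D1:**
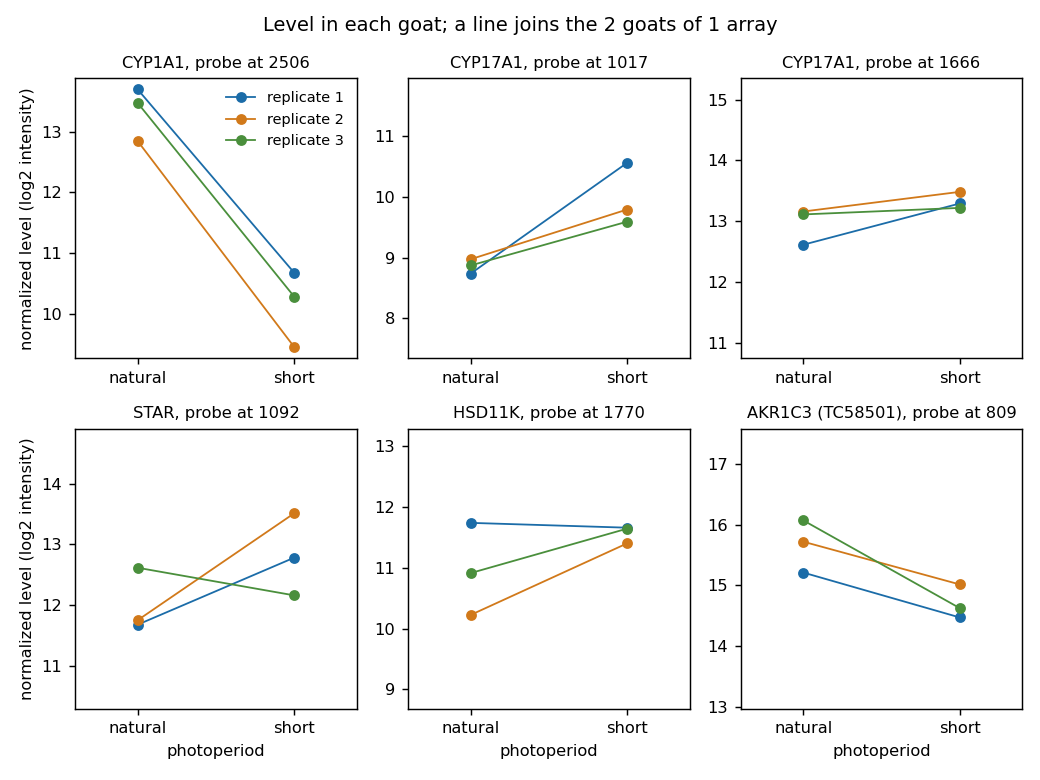
Normalized level (log2 intensity, vertical axis) of 6 probes in each of the 6 goats, with a line joining the goats compared on 1 array and the same span on every axis. The CYP1A1 lines all fall steeply and the CYP17A1 lines all rise, while the STAR and HSD11K lines do not all run the same way.

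The probe whose ratios lay closest to those of CYP1A1 (Euclidean distance over the 3 arrays) was that of GHRHR, the receptor of growth hormone releasing hormone, at a distance of 1.18 log2 units. Its mean ratio was -3.73. The next probes were the expressed sequence tag EE746974 at 2.08 and TC66598, described as the matrix protein tenascin-C, at 2.56. Their means were -2.29 and -2.10.

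CYP17A1 (NM_001009483) gave higher signals in the short photoperiod goat of every pair at both of its probes, but by different amounts. The probe at 1017, with 1 spot on each array, had log2 ratios of 1.82, 0.82 and 0.72. Their mean was 1.12 ± 0.61 (SD, n = 3), a fold change of 2.17, and replicate 1 stood above the other pairs. The levels at this probe were 10.56, 9.79 and 9.59 under the short and 8.74, 8.97 and 8.87 under the natural photoperiod. At this probe the natural photoperiod goats were close together, and the spread of the ratio came mostly from the short photoperiod goats. Without replicate 1 the mean was 0.77, below a 2-fold change.

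The CYP17A1 probe at 1666, which lies 649 bases further along the record, had log2 ratios of 0.68, 0.32 and 0.11. Their mean was 0.37 ± 0.29 (SD, n = 3), a fold change of 1.29, or 0.22 without replicate 1. The levels were 13.29, 13.48 and 13.22 under the short and 12.61, 13.16 and 13.11 under the natural photoperiod. The groups did not overlap, although replicate 3 was nearly level. Of all measured probes, 6.48% had every short photoperiod level above every natural photoperiod level. This probe was printed on 5 spots, and the SD of their ratios within an array was 0.0226 to 0.0393, far below the difference between the probes.

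The probe at 1017 exceeded the probe at 1666 by 1.14, 0.49 and 0.61 log2 units on the 3 arrays, a mean difference of 0.75 ± 0.35 (SD, n = 3). Both probes ranked the pairs in the same order, with the largest ratio on replicate 1 and the smallest on replicate 3. Of the measured probes, 28 had a higher mean ratio than the probe at 1017 and 1063 a higher one than the probe at 1666. The nearest probes to the former were the expressed sequence tags EE747528, GT873517 and EE823201, at distances of 0.52 to 0.58. For the latter they were EE749108, EE824999 and EE797096, at 0.09. The array gives none of these tags a gene name.

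Among the other enzymes, 20 of 25 probes, for 15 genes or records, were measured. At the probes for the aromatase record AJ133698, CYP19 at 1244, CYP2C19 and CYP2E1, neither channel was well above background on any array. CYP2C19 and CYP2E1 are drug-metabolizing enzymes known mainly from liver. The CYP11A1 probe at 1181 was well above background in Cy3 but not in Cy5, and the bound on its change was too low to give a fold. No ratio is given for these 5 probes.

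The measured probes of these enzymes had mean log2 ratios from -0.96 to 0.80 with a median of 0.05, against -0.0038 over all 13464 measured probes. Above 0 were 12 of the 20 and below 0 were 8. By limma with Benjamini-Hochberg adjustment over all probes tested, 0 of the 25 had an adjusted p under 0.05, against a background of 0.00668% of 14977 probes. That background is 1 probe, which belongs to the selected genes. No other probe of the array was called, so this count does not set these enzymes apart. The adjusted p of the measured probes ran from 0.155 to 0.990. An unadjusted p under 0.05 was found for 1 of them, where 18.5% of all probes had one. A mean change of at least 2-fold was reached by 0 of the 20, beside 0.841% of all probes (0.427% higher and 0.414% lower) and 0.772% of the measured ones. The members past this limit were the selected genes, which had been set apart. This 0 therefore follows from the selection and is not a result about the other enzymes. TC58501 at 809, with -0.96, was the member just outside this limit, and CYP17A1 at 1017, with 1.12, the member just inside it.

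**Figure D2:**
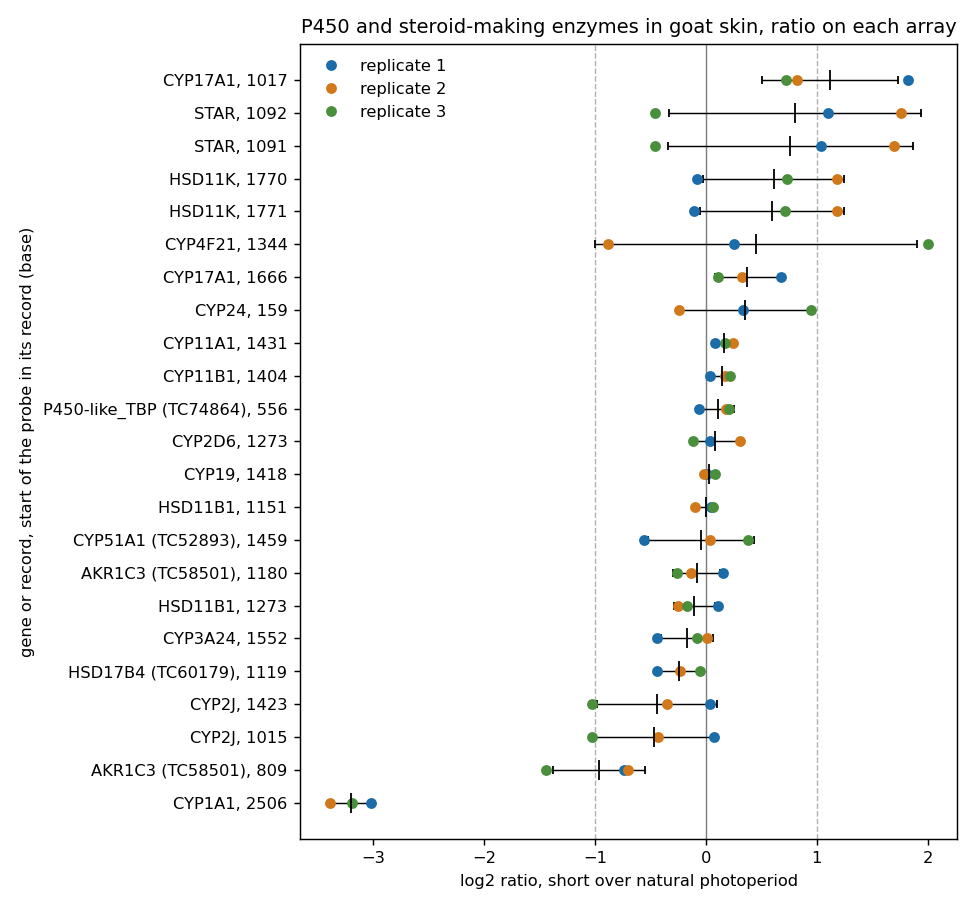
Log2 ratio of short over natural photoperiod (horizontal axis) on each array for the 23 measured member probes, ordered by mean, with the mean as a vertical tick and the SD over 3 arrays as a bar. Dashed lines mark a 2-fold change. CYP1A1 lies apart at the bottom, near -3.20, and the other probes have means between -0.96 and 1.12.

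Few of these enzymes kept a direction over the pairs of goats. Of the 20 measured probes, 2 were higher and 2 lower on all 3 arrays, while the other 16 had mixed signs. Among all measured probes, 44.1% kept a direction, 21.9% as higher and 22.2% as lower. The median SD of a probe over the arrays was 0.33 for these enzymes and 0.20 for all probes. The levels of the photoperiod groups did not overlap for 2 of the 20, 1 above and 1 below, where 13.7% of all measured probes had no overlap (6.48% above and 7.23% below). These shares were not tested.

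STAR (NM_001009243), the carrier of cholesterol into the mitochondrion, had the highest mean ratios of the other enzymes but changed direction between pairs. The probe at 1092 gave 1.10, 1.76 and -0.45 on replicates 1, 2 and 3. The mean of 0.80 ± 1.14 (SD, n = 3) had a 95% interval (limma, not adjusted for the number of probes) of -0.30 to 1.90 and an adjusted p of 0.377 from limma. Replicates 1 and 2 rose by more than 2-fold, and replicate 3 had the opposite sign. The levels were 12.78, 13.51 and 12.16 under the short and 11.68, 11.76 and 12.62 under the natural photoperiod, so that the groups overlapped through the pair of replicate 3. The probe at 1091 shares 59 bases with it and gave 1.04, 1.70 and -0.45, which shows the precision of the measurement and is not a second observation of the gene. At the probe at 1092, the mean was 0.65 without replicate 1, 0.32 without replicate 2 and 1.43 without replicate 3, with adjusted p-values from limma of 0.582, 0.797 and 0.160.

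The side chain cleavage enzyme CYP11A1 (NM_001093789), which makes pregnenolone from cholesterol, had ratios of 0.08, 0.25 and 0.18 at the probe at 1431. The mean of 0.17 ± 0.08 (SD, n = 3) had an adjusted p of 0.413 from limma. Its levels, 7.86, 7.86 and 7.94 against 7.78, 7.62 and 7.76, did not overlap but were close to the lower end of the measured range. CYP11B1, the last enzyme of cortisol synthesis in the adrenal cortex, was printed on 5 spots and had 0.04, 0.17 and 0.22, with a mean of 0.14 ± 0.09 and an adjusted p of 0.479. Under median centring of the arrays in place of loess, the means of CYP11A1 and CYP11B1 were -0.17 and -0.23, so the direction of these dim probes rests on the scaling. Aromatase (CYP19 at 1418), which turns androgens into oestrogens, had a mean of 0.03 ± 0.05, the smallest spread of the measured members, and -0.23 under median centring.

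Of the enzymes that interconvert active and inactive glucocorticoids, HSD11B1 had small mean ratios after loess and HSD11K varied between pairs. A difference between these enzymes was not tested. HSD11B1, which regenerates cortisol, had means of 0.00 ± 0.09 (SD, n = 3) at the probe at 1151 and -0.10 ± 0.19 at 1273. The 95% interval of the former was -0.25 to 0.26. Under median centring the means were 0.27 and 0.15, so the sign at 1273 rests on the scaling. HSD11K, the NAD-dependent dehydrogenase that inactivates cortisol, had ratios of -0.08, 1.18 and 0.73 at the probe at 1770. Its mean was 0.61 ± 0.64, with an interval of -0.04 to 1.26 and an adjusted p of 0.291 from limma. The levels were 11.66, 11.40 and 11.65 under the short and 11.74, 10.23 and 10.91 under the natural photoperiod, so the short photoperiod goats were alike and the natural photoperiod goats were not. Without replicate 1 the mean was 0.95, and without replicate 2 it was 0.33. The HSD11K probe at 1771 shares 59 bases with it and gave -0.10, 1.18 and 0.72.

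TC58501, a sheep contig that the array describes as the aldo-keto reductase AKR1C3 (3-alpha-hydroxysteroid dehydrogenase type II), had the lowest mean ratio of the other enzymes. AKR1C enzymes reduce steroid ketones, and AKR1C3 makes testosterone from its precursor in human tissue. The probe at 809 gave -0.74, -0.70 and -1.44 on the 3 arrays, a mean of -0.96 ± 0.42 (SD, n = 3) and a 95% interval of -1.43 to -0.50. It was the measured member with an unadjusted p under 0.05, and its adjusted p from limma was 0.155. The levels of 14.47, 15.02 and 14.63 under the short photoperiod all lay below the 15.21, 15.72 and 16.07 of the natural photoperiod.

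The second probe of TC58501, at 1180, did not show this change. It gave 0.15, -0.14 and -0.26, a mean of -0.08 ± 0.21 (SD, n = 3) and an interval of -0.39 to 0.23, and limma's adjusted p was 0.743. The probe at 809 was lower by 0.89, 0.57 and 1.18 log2 units on the respective arrays, a mean difference of -0.88 ± 0.31 between the probes. The probe at 809 was bright, with scanner intensities of 30302, 56444 and 45712 in Cy5 and 22661, 32945 and 41244 in Cy3, so that before normalization its ratio was above 0, as it was for the median spot. Under median centring its mean was -0.39 and that of the probe at 1180 was -0.22, so that most of the difference between the probes was lost.

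**Figure D3:**
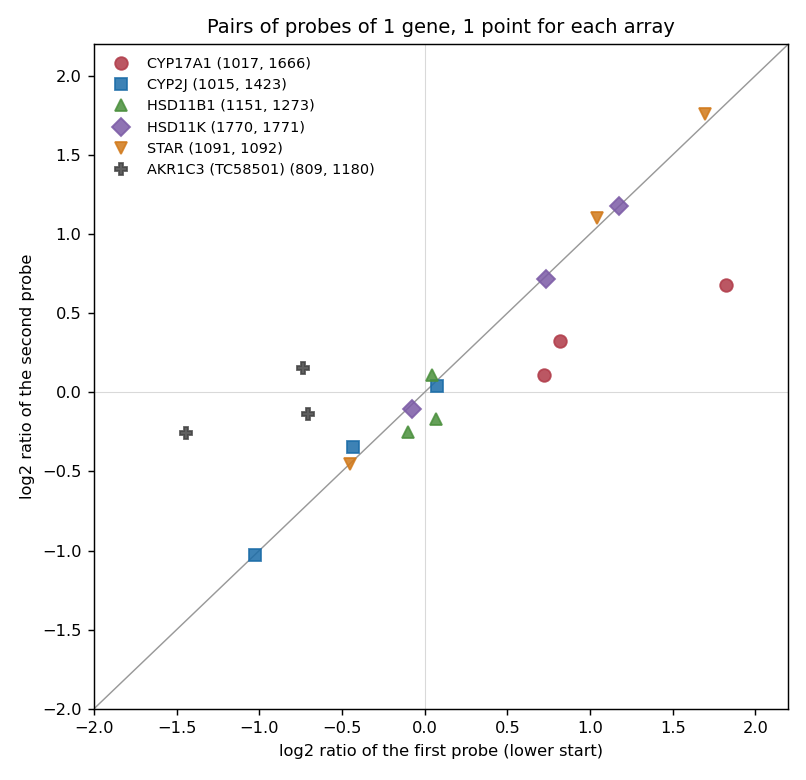
Log2 ratio of the second probe of a gene (vertical axis) against that of the first (horizontal axis), with 1 point for each array and starts of the probes in brackets. Points on the diagonal have equal ratios, as for STAR, HSD11K and CYP2J, while CYP17A1 lies below and TC58501 above it on all 3 arrays.

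Beside these, 4 other genes had a pair of probes that were both measured. STAR and HSD11K differed by at most 0.06 between probes that share nearly all bases. The probes of CYP2J, an epoxygenase of arachidonic acid, lie 408 bases apart and share 0 bases, yet differed by at most 0.09 on any array. They gave 0.07, -0.43 and -1.03 at 1015 and 0.04, -0.35 and -1.03 at 1423. The means were -0.46 ± 0.55 and -0.44 ± 0.54 (SD, n = 3), and limma gave adjusted p-values of 0.340 and 0.349. These probes thus gave the same picture of a gene that differed between pairs, unlike those of CYP17A1 and TC58501. The HSD11B1 probes differed by at most 0.24.

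Of the fatty acid and vitamin P450s, CYP4F21, a prostaglandin omega-hydroxylase, varied most. Its ratios were 0.25, -0.89 and 1.998, and their mean was 0.45 ± 1.45 (SD, n = 3) at an adjusted p of 0.678 by limma. The natural photoperiod goats had levels of 7.78, 10.89 and 7.97, and the short photoperiod goats of replicates 1 and 3 had 8.03 and 9.97, so the goats of 1 condition differed from each other as much as the conditions did. A larger SD was found for 75 of the 13464 measured probes. CYP24, which degrades vitamin D, gave 0.34, -0.24 and 0.95, a mean of 0.35 ± 0.60.

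The remaining members changed little in their mean. The drug-metabolizing enzymes CYP2D6 and CYP3A24 had means of 0.08 ± 0.22 and -0.17 ± 0.24 (SD, n = 3). TC52893, described as the sterol demethylase CYP51A1 of cholesterol synthesis, gave -0.56, 0.04 and 0.38, a mean of -0.05 ± 0.48, which was 0.14 under median centring. TC60179, described as the peroxisomal enzyme HSD17B4, was lower on all 3 arrays with -0.44, -0.23 and -0.05, a mean of -0.24 ± 0.19 and an adjusted p of 0.343 from limma, and its mean was 0.06 under median centring. TC74864 is named only from a partial match to a tobacco record called P450 like_TBP, so it may not be a P450. It is counted with the enzymes by the rule and had a mean of 0.11 ± 0.15. Under median centring this became 1.02 with an adjusted p of 0.0336 from limma, in a setting that called 1880 of all probes.

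**Figure D4:**
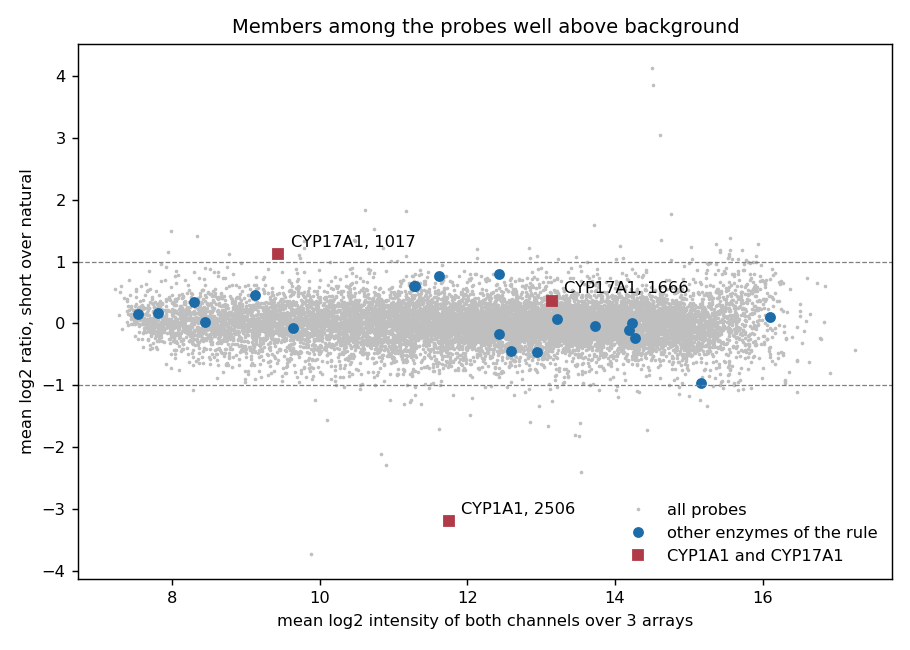
Mean log2 ratio over 3 arrays (vertical axis) against the mean log2 intensity of both channels (horizontal axis) for all measured probes, with the 23 measured member probes in colour and dashed lines at a 2-fold change. CYP1A1 lies far below probes of the same intensity, and CYP17A1 at 1017 lies above the upper line at a lower intensity than CYP17A1 at 1666.

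The partners of these enzymes were read from lists of genes of the same pathways. Of 14 genes of the AHR pathway, 4 had probes on the array, and 0 of their 7 probes had an adjusted p under 0.05 from limma. An unadjusted p under 0.05 was found for 1 of the 7, where 18.5% of all probes had one. The median log2 ratio of the 7 probes was -0.20. AHR itself gave -0.36, -0.12 and -0.70, a mean of -0.40 ± 0.29 (SD, n = 3) at an adjusted p of 0.247 by limma. Its dimerization partner ARNT gave means of -0.16 ± 0.49 and -0.22 ± 0.40 at a pair of probes. The conjugating enzymes UGT1A9 and GSTA1, which also belong to the AHR response, had means from -0.28 to 0.25. Under median centring the GSTA1 probes, with 0.25 and -0.20 after loess, had means of 0.74 and 0.69 and adjusted p-values of 0.0345 and 0.0364 from limma. That setting called 1880 of all probes, so the sign of the second GSTA1 probe and both calls rest on the scaling. The mean ratios of these genes were smaller in size than that of CYP1A1, which had been selected on its ratio. A part of the AHR pathway in the CYP1A1 difference was not tested.

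Of 18 partners of steroid synthesis, 4 genes with 5 probes were measured, with a median of -0.15. By limma, 0 of these probes had an adjusted p under 0.05. An unadjusted p under 0.05 was found for 2, both of POMC, where 18.5% of all probes had one. NR5A1 (steroidogenic factor 1), a transcription factor for steroid-making genes, had a mean of -0.23 ± 0.13 (SD, n = 3) and an adjusted p of 0.313 from limma. MC2R, the receptor of the hormone ACTH, gave -0.12, -0.06 and -0.44, a mean of -0.21 with an adjusted p of 0.407. POMC, the precursor of ACTH, which stimulates steroid synthesis, was singled out after its values were seen. It gave 0.56, 0.71 and 0.94 at the probe at 732 and 0.48, 0.62 and 0.91 at 731, with an adjusted p of 0.155 from limma for both. These starts are adjacent, so the probes share nearly all bases and are not separate observations of the gene. Under median centring NR5A1 had a mean of -0.48 (adjusted p 0.0485, limma) and the POMC probes 0.69 and 0.63 (adjusted p 0.0357 and 0.0411). Median centring called 1880 of all probes, against 1 after loess, so these calls rest on the scaling. The receptors of oestrogens (ESR1) and glucocorticoids (NR3C1) had means of -0.07 and -0.10, and adjusted p-values of 0.820 and 0.621 from limma. SQLE, the 1 measured gene of 18 in cholesterol synthesis, had means of -0.21 and -0.29.

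Markers of other cell types in skin were read beside the enzymes. By limma, 0 probes of these lists had an adjusted p under 0.05, and the part of these cell types in the results for CYP1A1, CYP17A1 and TC58501 was not tested. Their counts stand against the 22.2% of all measured probes that were lower, and the 21.9% that were higher, on all 3 arrays. Several genes have more than 1 probe, and probes of 1 gene are not separate observations. Of the leukocyte probes, which stand for 5 genes, 10 of 10 were lower on all 3 arrays, with a median of -0.37. Their summed level ran from 94609 to 111348 under the short and from 127240 to 150818 under the natural photoperiod. Of the endothelial probes, which stand for 3 genes, 4 of 5 were lower on all arrays, namely those of SELE and SELP, while VWF was mixed. Their median was -0.47, with summed levels of 15945 to 18126 against 21768 to 27712. SELE, an adhesion molecule of activated endothelium, had a mean of -1.03 at 1 of its probes (adjusted p 0.155, limma). The epidermis and follicle probes (KRT14 and TP63) were higher on all arrays in 3 of 3, with a median of 0.91 and summed levels of 74094 to 87776 against 36998 to 66291, while KRT5 had a usable ratio on 1 array. The sebaceous gland and dermis probes were mixed, with medians of -0.41 and -0.23. Of the probes with a ratio on all 3 arrays, 1 of 5 and 2 of 5 were lower on all, the latter both of COL3A1. The dermis median also covers the VIM probes, which had a ratio on 2 arrays. Under median centring these medians were 0.09 and 0.74, and 1 leukocyte probe of 10 lay above 0. The liver marker ALB was not well above background at either probe in Cy5, whereas TTR was measured with a mean of -0.42.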

How the data were processed

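Skin RNA of 6 goats was measured on 3 Agilent sheep arrays of 2 colours. The deposited Feature Extraction 10.7.3.1 files hold raw intensity per spot (mean of the spot, median of the surrounding background). Beside it stand the authors' processed intensity (lowess dye normalization) and its log10 ratio, and the authors' value table holds log2 ratios of the processed intensity. The processed values were used only as alternatives.

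In R 4.3.3 with limma 3.58.1, all spots were background-corrected (normexp, offset 50), control and outlier-marked spots were removed, and each array was normalized by loess. Spots of a probe were averaged. The 14977 probes with at least 2 arrays were tested against 0 with lmFit and eBayes and Benjamini-Hochberg adjustment at 0.05. Levels of single goats are channel values after loess and Aquantile. The number of arrays limits the precision, and each replicate is a separate pair of goats. All arrays came from 1 slide and 1 scan, so no batch was tested. The median intensity was 4587 to 7120 in Cy5 and 2688 to 3911 in Cy3, and 0 spots were saturated. The value table equalled the log2 processed ratio within 0.001 for 99.96% to 100% of 14958 probes, and its column medians were 0.0085, 0.0012 and 0.0179. The script of the limma test was tested on simulated data.

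The members, gene lists and tests were chosen with earlier results of these data known. CYP1A1 and CYP17A1 were named at every probe, the other members once by role, with full values for a mean change of at least 0.5 log2 in 1 direction on all arrays and for pairs of probes. List genes were named at an adjusted p under 0.05, at a mean change of at least 1, or as key partners, of which 1 is not reported here. The 3 nearest probes were taken by Euclidean distance. Of 20 member names, 5 matched a goat symbol in the RefSeq table, and names are those of the array. Alternatives were the background correction, the normalization, filters, the authors' table, the brightest probe, other fits and leaving out arrays. Figures were drawn with matplotlib 3.10.9.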

Additional observations from a re-analysis of the deposited data

How the results depend on the processing

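CYP1A1 stayed between -3.29 and -3.10 in mean log2 ratio over the alternatives run, the CYP17A1 probe at 1017 between 0.77 and 1.32, and the probe at 1666 between 0.22 and 0.50, with no change of sign. Median centring in place of loess took the CYP17A1 probe at 1017 to 0.95, under a 2-fold change. Counts of limma calls over all 28 member probes include CYP1A1, which was selected on these ratios, so they are given as a description of the settings and not as support. This count was 0 with Feature Extraction's log ratio, 5 under median centring, and 0 to 0 with 1 array left out. Of the other member probes, 4 were called under median centring (1880 of all probes). These were TC74864, whose identity is uncertain, and the probes of CYP11A1 at 1181, CYP19 at 1244 and CYP2E1. The latter are not above background in 1 or both channels. Median centring called 14 probes of the partner and marker lists. The fit of separate channels called 2 of them (CD3E and SELE) and 170 of all probes.

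Mean changes of 2-fold or more were found for 1 member probe with the brightest probe of each gene and for 2 to 4 with 1 array left out. For the other enzymes this count was 1 under median centring (TC74864) and 1 to 2 with 1 array left out. TC58501 at 809 passed without replicate 1 (-1.07) and without replicate 2 (-1.09), CYP4F21 without replicate 2 (1.12), and both STAR probes without replicate 3. Members in 1 direction on all arrays numbered 7, and 10 to 15 with 1 array left out, where fewer arrays have to agree in sign. The median of the other enzymes, 0.05, was 0.11 under median centring, 0.078 with the brightest probes, and 0.0026 to 0.15 with 1 array left out. The adjusted p of TC58501 at 809 ran from 0.0543 (separate channels) to 0.393, that of STAR at 1092 from 0.160 to 0.797 and that of HSD11K at 1770 from 0.180 to 0.672. Where no construction is named, the cause was not tested. The limma test of the ratios is itself paired, since each array compares 1 goat of each group from the same parent, and no further replicate block could be added. Probes near the background, such as those of CYP11A1 and CYP11B1, limit what small changes can be read.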
